A study of Mus musculus with 2 samples.

Results

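Proteasome subunit genes were described in newborn mouse skeletal muscle. They were the protein-coding genes whose symbol begins with Psma, Psmb, Psmc or Psmd followed by a number, and 40 of 21474 protein-coding genes met that rule. Of the 40, 39 are named for the proteasome and 1, Psmc3ip, encodes a meiotic protein that shares only the start of its name. The series holds 2 libraries of 1 group: skeletal muscle at postnatal day 0 from the mouse strain B6NCrl, with no genetic change or treatment in the labels, a portion of tissue of 1 pup given for each library, and sex not collected. Each library was made from 13 pg of purified total RNA, which the labels equate with a single cell, so the input was a diluted tissue extract and not a cell. Both libraries carry the same donor entry under separate tissue records, so they may come from 1 animal, and differences between animals, tissue portions and libraries cannot be told apart. With 1 group there was no comparison of conditions and no test, and an error below is the SD over the n = 2 libraries, which may be technical.

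The proteasome degrades proteins tagged with ubiquitin. Its core particle is a barrel of alpha and beta rings, and the beta subunits Psmb5, Psmb6 and Psmb7 carry the proteolytic sites. The regulatory particle caps the barrel: a base with a ring of ATPases unfolds the substrate, and a lid removes its ubiquitin. In immune cells, and in other cells exposed to interferon, Psmb8, Psmb9 and Psmb10 take the places of Psmb5, Psmb6 and Psmb7 in the immunoproteasome, which makes peptides for antigen presentation. In muscle the proteasome takes part in protein turnover and in atrophy.

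Replicate 1 held 32103374 expected counts and replicate 2 held 38977618. Spike-in RNAs of known sequence held 9.44% of all TPM (a transcript level adjusted for transcript length and library total) in replicate 1 and 4.54% in replicate 2. All 10 skeletal muscle markers were detected in both libraries, with Acta1, the skeletal alpha actin, at 64537 and 61754 TPM in replicates 1 and 2. None of 6 testis and thymus markers was detected. Detection required both 5 or more expected counts and a TPM of 1 or more. Pairs of amounts below are those of replicates 1 and 2, which are repeats of 1 group.

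The sequence just before the start of transcription is shown for 5 catalytic genes. They were chosen because the immunoproteasome and constitutive genes at these places of the barrel lay far apart in level. No such sequence was found for Psmb7, the counterpart of Psmb10, so it is not shown. The 250 bases before the RefSeq start are given 5′ to 3′ on the gene's strand, from RefSeq on GRCm38.p6, with matches to 5 searched motifs in capitals. The windows are chr17:34197945-34198194, plus strand, for Psmb8; chr17:34187331-34187580, minus strand, for Psmb9; chr8:105938393-105938642, minus strand, for Psmb10; chr14:54617996-54618245, minus strand, for Psmb5; and chr11:70525107-70525356, plus strand, for Psmb6.
Psmb8: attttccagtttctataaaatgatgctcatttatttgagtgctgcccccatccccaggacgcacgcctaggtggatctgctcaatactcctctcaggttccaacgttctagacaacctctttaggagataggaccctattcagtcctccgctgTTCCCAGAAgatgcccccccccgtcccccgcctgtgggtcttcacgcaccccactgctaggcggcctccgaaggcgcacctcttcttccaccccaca
Psmb9: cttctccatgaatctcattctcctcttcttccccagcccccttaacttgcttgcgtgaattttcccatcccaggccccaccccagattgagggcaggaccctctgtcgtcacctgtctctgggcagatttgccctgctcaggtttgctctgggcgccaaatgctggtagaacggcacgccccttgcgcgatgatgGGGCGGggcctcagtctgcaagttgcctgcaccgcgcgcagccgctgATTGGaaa
Psmb10: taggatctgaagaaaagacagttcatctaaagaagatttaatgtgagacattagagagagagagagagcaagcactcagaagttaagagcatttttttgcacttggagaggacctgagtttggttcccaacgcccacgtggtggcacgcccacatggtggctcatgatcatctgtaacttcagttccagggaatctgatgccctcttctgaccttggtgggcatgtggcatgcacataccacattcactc
Psmb5: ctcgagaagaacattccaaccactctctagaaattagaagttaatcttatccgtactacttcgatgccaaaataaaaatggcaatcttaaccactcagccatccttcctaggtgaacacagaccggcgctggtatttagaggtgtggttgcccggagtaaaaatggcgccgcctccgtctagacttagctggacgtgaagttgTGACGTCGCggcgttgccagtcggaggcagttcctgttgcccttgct
Psmb6: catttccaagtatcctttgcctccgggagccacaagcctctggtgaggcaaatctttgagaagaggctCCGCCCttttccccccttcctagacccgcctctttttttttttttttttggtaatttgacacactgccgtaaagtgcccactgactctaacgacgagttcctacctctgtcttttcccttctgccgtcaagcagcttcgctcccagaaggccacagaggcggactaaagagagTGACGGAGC

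The motifs were searched on both strands, with N for any base. They were the interferon-gamma activated site (GAS), TTCNNNGAA, the core of the interferon-stimulated response element (ISRE), GAAANNGAA, the core of the antioxidant response element (ARE), TGACNNNGC, the CCAAT box, CCAAT, and the GC box, GGGCGG. In the window of Psmb8 the capitals mark a GAS match that begins 97 bases before the start. In Psmb9 they mark a GC box 55 bases before the start and a CCAAT box, read on the other strand, 8 bases before it. The window of Psmb10 held none of the 5. Psmb5 held an ARE core 47 bases before the start, and Psmb6 held an ARE core 9 bases before the start and a GC box, read on the other strand, 182 bases before it. No match overlapped another in these windows. The RefSeq start lies 474 bases downstream of the GENCODE start of Psmb8 and 434 bases downstream of that of Psmb9, 52 and 27 bases downstream for Psmb10 and Psmb5, and 10 bases upstream for Psmb6, so other windows would be searched with GENCODE starts.

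Promoter windows were found for 33 of the 40 members. GAS was held by 1 of 33 members (3.03%), against 8.13% of 27025 genes with a window. The ISRE core was held by 3 of 33 (9.09%), Psmb3, Psmd4 and Psmd9, against 8.18% of all. The ARE core was held by 5 of 33 (15.2%), Psmb5, Psmb6, Psmc6, Psmd9 and Psmd12, against 11.5% of all. This letter pattern is bound by factors that include Nfe2l1, which is known to raise proteasome gene transcription when proteasomes are inhibited. CCAAT was held by 14 of 33 (42.4%) against 37.5%, and the GC box by 18 of 33 (54.5%) against 35.4%. A match is a description of letters and no measure of binding.

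Of the 40 members, 33 were detected in both libraries (82.5%), against 18.2% of all protein-coding genes. The 33 included all 14 subunits of the constitutive core, all 17 base and lid subunits, the immunoproteasome gene Psmb10 and the chaperone Psmd9. Psmd10 was detected only in replicate 2. The other 6, Psma8, Psmb8, Psmb9, Psmb11, Psmc3ip and Psmd5, were detected in neither library, and 5 of them had no count at all. The members that were detected in both libraries had median levels of 193 and 216 TPM in replicates 1 and 2, against 51.5 and 43.3 TPM for all protein-coding genes detected in both. Together the members held 6103 and 7552 TPM in replicates 1 and 2, which is 0.610% and 0.755% of all TPM, or 0.683 ± 0.102% (SD, n = 2).

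**Figure D1:**
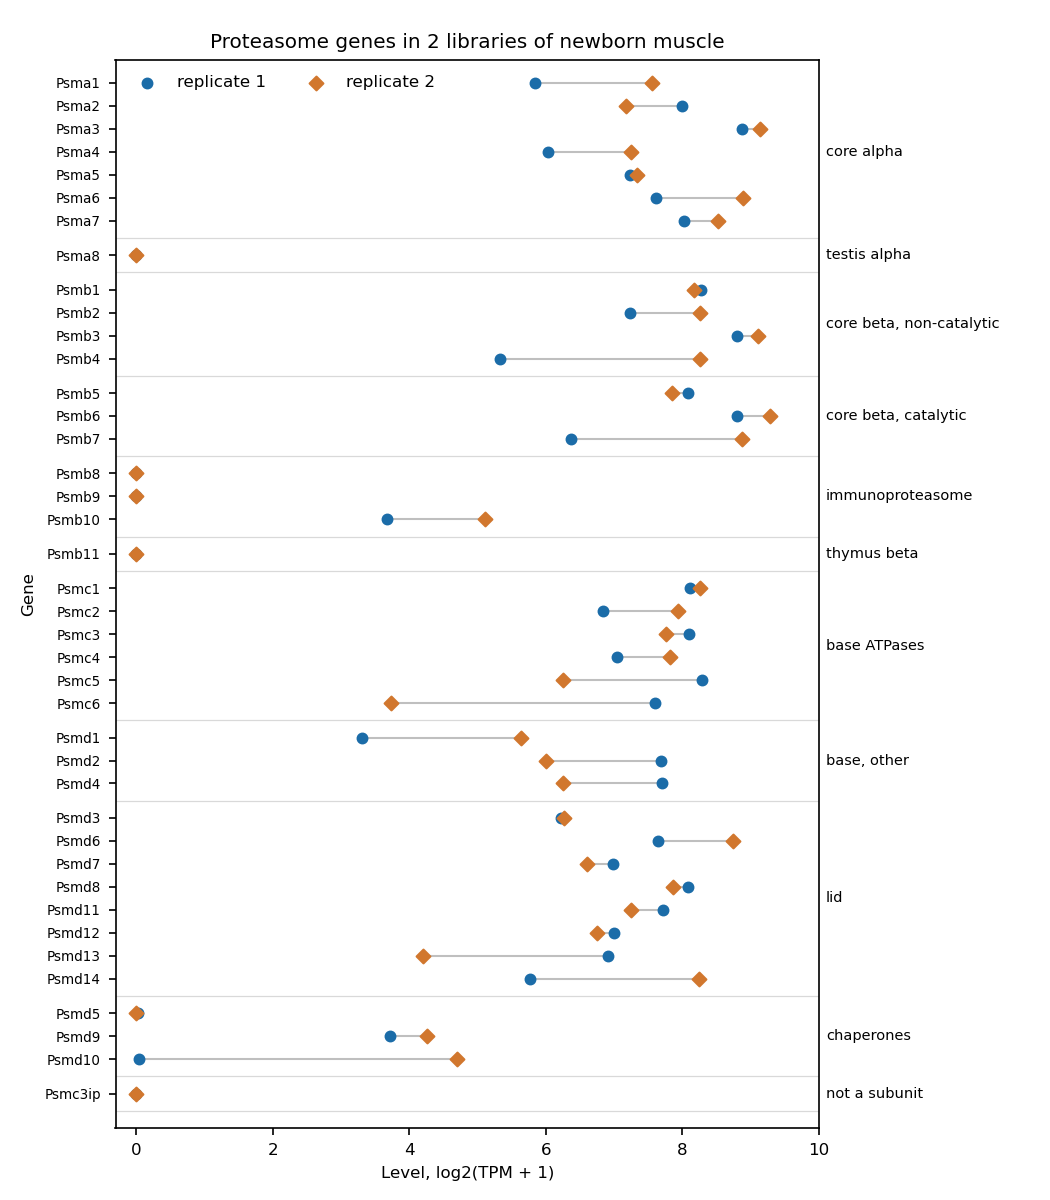
Levels of the 40 members on the scale log2(TPM + 1), with a gene per line, grouped by role; circles are replicate 1, diamonds replicate 2, and grey lines join them. All 31 constitutive core, base and lid subunits lie well above 0 in both libraries, while Psma8, Psmb8, Psmb9, Psmb11 and Psmc3ip lie at 0 in both and Psmd10 lies near 0 in replicate 1 only.

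The 7 alpha subunits, which form the outer rings and the gate of the barrel, summed to 1446 and 2037 TPM in replicates 1 and 2. Psma3 was the highest of them in both libraries, with 468 TPM in replicate 1 and 560 TPM in replicate 2. Psma7 had 260 and 365 TPM, and Psma6 had 194 and 470 TPM. These 3 genes were each higher in replicate 2. Psma5 had 150 and 160 TPM, which was the smallest difference among the alpha subunits. Psma2 had 253 and 143 TPM and was the only alpha subunit higher in replicate 1. Psma1 had 56.6 and 187 TPM, and Psma4 had 64.7 and 150 TPM. These were the lowest alpha subunits in replicate 1, yet in replicate 2 they lay close to Psma2 and Psma5. Psma8, a form of the alpha ring made in testis, had 0 counts in both libraries.

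The 4 beta subunits without a proteolytic site summed to 941 and 1445 TPM in replicates 1 and 2. Psmb3 had 446 and 548 TPM, Psmb1 had 307 and 288 TPM, and Psmb2 had 149 and 305 TPM. Psmb4 had 39.2 TPM in replicate 1 and 305 TPM in replicate 2, the widest ratio within the constitutive core. In replicate 2 the 4 subunits lay within a 1.91-fold range, and in replicate 1 within an 11.4-fold range, with Psmb4 at the bottom.

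Among the immunoproteasome catalytic genes, Psmb8 and Psmb9 had 0 expected counts in both libraries, while Psmb10 had 338 and 1230 counts, or 11.8 and 33.6 TPM, in replicates 1 and 2. Among the constitutive genes, Psmb5, the chymotrypsin-like subunit, had 269 and 230 TPM, Psmb6, the caspase-like subunit, had 444 and 623 TPM, and Psmb7, the trypsin-like subunit, had 81.4 and 466 TPM. Each immunoproteasome gene was below its constitutive counterpart in both libraries. With 3 counts per library taken as the limit that a count of 0 allows, Psmb8 was at least 2955-fold lower than Psmb5 in replicate 1 and at least 3243-fold lower in replicate 2. Psmb9 was at least 3640-fold lower than Psmb6 in replicate 1 and at least 6546-fold lower in replicate 2. These limits cover the counting of reads and not the loss of molecules from so little RNA, and they depend on the limit used. The upper ends of the authors' deposited TPM intervals lie higher, at 0.233 and 0.183 TPM for Psmb8 and 0.749 and 0.588 TPM for Psmb9 in replicates 1 and 2. At those ends Psmb8 would be 1156-fold and 1259-fold lower than Psmb5, and Psmb9 593-fold and 1059-fold lower than Psmb6. Psmb10 was 6.88-fold lower than Psmb7 in replicate 1 and 13.9-fold lower in replicate 2, a difference of -3.22 ± 0.76 on log2(TPM + 1) (SD, n = 2). Summed, the 3 immunoproteasome genes held 11.8 and 33.6 TPM in replicates 1 and 2 against 794 and 1320 TPM for the 3 constitutive genes, a log2 ratio of TPM of -6.07 and -5.30 (mean -5.68 ± 0.55, SD, n = 2). The gap was larger than its spread between the libraries, but an immunoproteasome share of 1.47% and 2.48% of the 6 genes rests on Psmb10 alone.

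**Figure D2:**
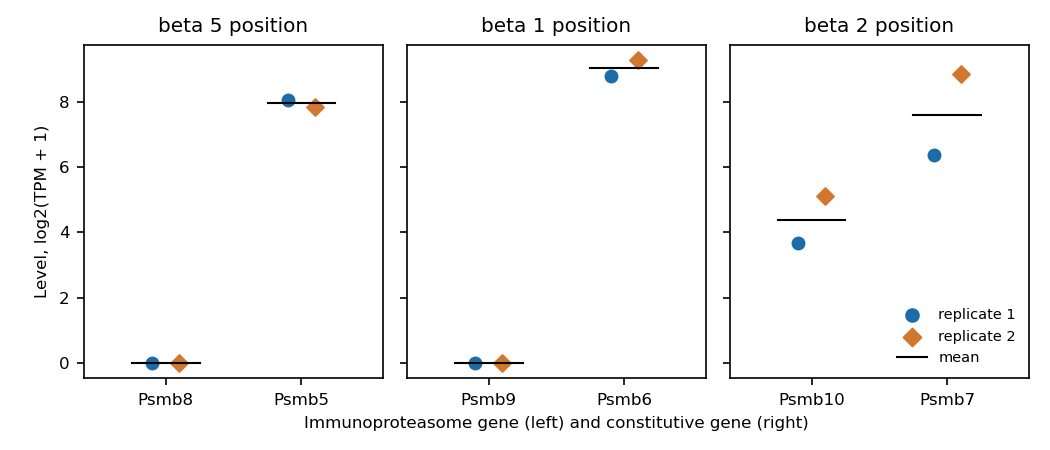
Levels on the scale log2(TPM + 1) of each immunoproteasome catalytic gene, on the left of a panel, and the constitutive gene of the same place in the barrel, on the right; circles are replicate 1, diamonds replicate 2 and black lines the mean of both. Psmb8 and Psmb9 lie at 0 in both libraries, and Psmb10 lies below Psmb7 in both.

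Psmb9 (GRCm38 chr17:34181987-34187764, minus strand) and Psmb8 (chr17:34197721-34201454, plus strand) flank Tap1, which encodes part of the transporter that carries peptides to class I molecules. From H2-DMb1 to H2-Ob, 8 annotated genes lie in this stretch, among them Tap1, Tap2 and the noncoding Gm20496 and Gm15821. All 8 had 0 counts in both libraries, as had 54.2% of all protein-coding genes. Psmb9 and Tap1 overlap by 212 bases, so reads of the overlap cannot always be assigned to one of them. Outside the stretch, from Platr17 to Pbx2 on the same chromosome, 15 of 32 protein-coding genes likewise had 0 counts in both libraries, the neighbours H2-DMb2 and H2-DMa among them, and 5 were detected in both. Beyond those neighbours, Brd2, a chromatin reader, had 1421 and 1272 counts in replicates 1 and 2, and on the other side the class II gene H2-Ab1 had 3 and 1379 counts. Genes with 0 counts thus also lay outside the stretch that holds Psmb8 and Psmb9, though within it no gene had a count. The reason was not tested. Of 11 interferon and antigen presentation genes, 4 were detected in both libraries, 2 in replicate 1 only and 5 in neither. B2m, the light chain of class I molecules, had 294 and 408 TPM, H2-D1 had 327 and 68.6 TPM, and H2-K1 had 78.2 and 35.3 TPM. Class I genes were thus measured in libraries in which Psmb8, Psmb9, Tap1, Tap2 and the transcription factors Irf1 and Nlrc5 had no counts.

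Of 14 leukocyte markers, 8 were detected in both libraries, 2 in replicate 2 only and 4 in neither. The list summed to 1217 TPM in replicate 1 and 686 TPM in replicate 2, with Laptm5, at 218 and 111 TPM, highest by the mean of both. Members differed in both directions: C1qb had 280 and 44.3 TPM, and Mrc1 had 7.23 and 43.3 TPM. Ptprc, which marks leukocytes in general, had 3 counts in replicate 1 and 0 in replicate 2, and Cd52 had 0 in both. Of 8 endothelial markers, 5 were detected in both libraries, and the list summed to 532 and 259 TPM, with Pecam1 alone at 182 and 0.06 TPM and Tie1 at 5.03 and 21.6 TPM. The sums were higher in replicate 1 and Psmb10 in replicate 2. Of the markers detected in a library, C1qc, Cd68, Mrc1, Fcer1g, Tie1, Esam and Kdr were higher in replicate 2. Among these, C1qc, Cd68 and Kdr had 0 counts in replicate 1. The others, Laptm5, Tyrobp, C1qb, C1qa, Lyz2, Cd74, Egfl7, Pecam1, Tek, Cdh5 and Emcn, were higher in replicate 1. The part of either cell type in the level of Psmb10 was not tested. In a tissue extract, fewer cells of a type and less RNA per cell cannot be told apart. Psmb11, the catalytic subunit of the thymus proteasome, had 0 counts in both libraries.

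The 6 ATPases of the base summed to 1298 and 1080 TPM in replicates 1 and 2. Psmc1 had 274 and 306 TPM, Psmc3 had 273 and 216 TPM, and Psmc4 had 131 and 226 TPM. Psmc2 had 113 TPM in replicate 1 and 245 TPM in replicate 2. Psmc5 and Psmc6 stood the other way. Psmc5 had 313 TPM in replicate 1 and 75.5 TPM in replicate 2, and Psmc6 had 193 TPM in replicate 1 and 12.3 TPM in replicate 2. The ring holds a copy of each of these 6 proteins, yet their transcripts spanned a 2.77-fold range in replicate 1 and a 24.9-fold range in replicate 2, where Psmc6 was the lowest.

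Of the other base subunits, the scaffold Psmd2 had 205 and 63.3 TPM in replicates 1 and 2, and the ubiquitin receptor Psmd4 had 208 and 74.9 TPM. Psmd1, the second scaffold, had 8.92 TPM in replicate 1, the lowest of the 31 constitutive subunits there, and 48.8 TPM in replicate 2. Among the 8 lid subunits, Psmd8 had 271 and 231 TPM, Psmd11 had 210 and 150 TPM, and Psmd6 had 199 and 425 TPM. Psmd12 had 127 and 107 TPM, Psmd7 had 126 and 95.8 TPM, and Psmd3 had 73.9 and 76.3 TPM, the closest pair of values by ratio among the 31 constitutive subunits. Psmd14, the enzyme that removes ubiquitin from substrates, had 53.6 TPM in replicate 1 and 303 TPM in replicate 2. Psmd13 had 119 TPM in replicate 1 and 17.5 TPM in replicate 2. Within the lid, 5 genes were thus higher in replicate 1 and 3 in replicate 2.

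The regulatory particle chaperones, which help to assemble the base, had low levels or were not detected. Psmd9 had 12.2 and 18.2 TPM in replicates 1 and 2. Psmd10 had 1 count in replicate 1 and 1039 counts, or 25 TPM, in replicate 2. Psmd5 had 1 and 0 counts. With levels this low in 13 pg of RNA, the absence of reads in a library does not show that the tissue lacked the transcript.

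Genes that 1 library measured at a given level were often missing from the other, and the members were set beside all protein-coding genes of the same level. At 30 to 100 TPM in replicate 1, all 6 members were detected in replicate 2, against 69.6% of 2132 protein-coding genes. At 100 to 300 TPM in replicate 1, all 19 members were detected in replicate 2, against 91.4% of 795 genes. In the other direction, all 7 members at 30 to 100 TPM in replicate 2 were detected in replicate 1, against 65% of 2066 genes, and all 12 members at 100 to 300 TPM, against 89.9% of 769 genes. At 10 to 30 TPM, 2 of 2 members of replicate 1 and 3 of 4 members of replicate 2 were found again, against 59.4% and 51.6% of genes. Above 300 TPM, all 5 members of replicate 1 and all 11 of replicate 2 were found again, as were 100% and 99.8% of protein-coding genes. The numbers of members in a level range were small, and no test was made.

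**Figure D3:**
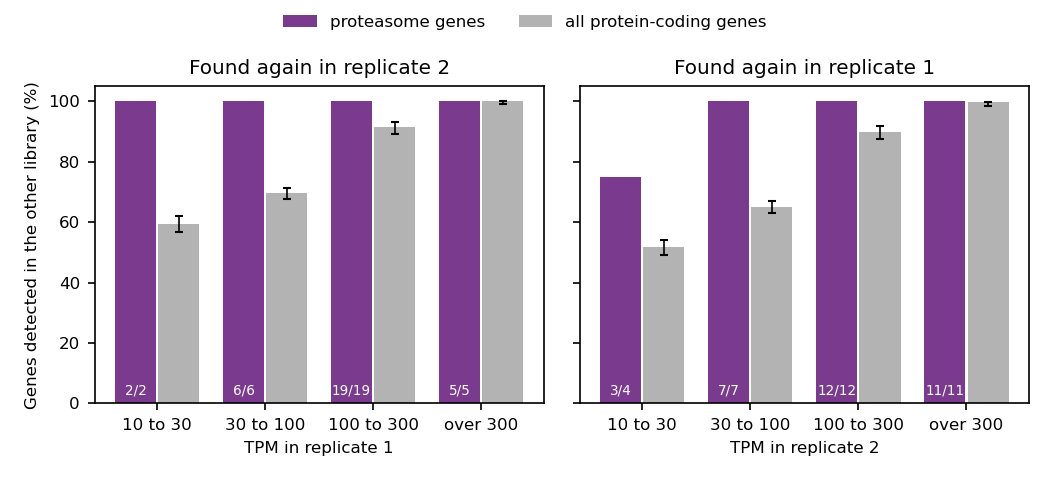
Share of genes detected in one library, by their TPM there, that were also detected in the other library; purple bars are the members, with numbers found and present printed in them, and grey bars all protein-coding genes, with 95% Wilson intervals. Every member above 30 TPM in a library was found in the other, and a single member, Psmd10, was missed at 10 to 30 TPM.

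Between the libraries, 33 members and 4872 genes in all had at least 10 expected counts in both. The ratio was log2 of (TPM + 1) in replicate 1 over replicate 2, centred on the median of the 4872 genes, which was 0.04 before centring. The members had a median of -0.30, with 13 above 0 and 20 below. More than 2-fold higher in replicate 1 were 5 members, Psmc5, Psmc6, Psmd2, Psmd4 and Psmd13, against 23.6% of all genes. More than 2-fold higher in replicate 2 were 11 members, against 24% of all genes. Taken in either direction, 16 of 33 members (48.5%) differed by more than 2-fold, and so did 48.2% of 3235 protein-coding genes between 15.2 and 533 mean TPM, the range of the members. The share of members beyond 2-fold was thus close to that of other genes of their level. Their median absolute ratio was 0.82, against 0.96 for those genes, and the SD of their ratios was 1.48 against 1.86.

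The widest ratios were those of Psmc6, at 3.83, and Psmb4, at -2.97. Psmd13 stood at 2.66, Psmb7 at -2.54, Psmd14 at -2.52, Psmd1 at -2.37 and Psmc5 at 2.00. Subunits of the same complex thus stood at both ends of the range. Psmd3, Psmb1 and Psma5 lay nearest to 0, at -0.09, 0.05 and -0.14. Each ratio compares 1 library with 1 library and has no replicate check.

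Centred on the median gene, the core and the regulatory particle had medians on opposite sides of 0. Of the 14 constitutive core subunits, 11 were relatively higher in replicate 2, with a median of -0.53, and 6 of them by more than 2-fold, while none was more than 2-fold higher in replicate 1. Of the 17 base and lid subunits, 10 (58.8%) were relatively higher in replicate 1, with a median of 0.20. By more than 2-fold, 5 were higher in replicate 1 and 4 in replicate 2. Of all genes compared, 23.6% were more than 2-fold higher in replicate 1 and 24% in replicate 2. The centring puts as many of all genes above 0 as below. When the ratios were centred on the spike-ins instead, whose own median ratio was 0.98, the medians were -1.47 for the core and -0.74 for the base and lid, so the direction of the base and lid depends on the scaling. The core summed to 3181 and 4802 TPM in replicates 1 and 2, and the base and lid to 2898 and 2674 TPM. Per subunit the core averaged 227 and 343 TPM and the base and lid 170 and 157 TPM, a core level 1.33 and 2.18 times as high in replicates 1 and 2. The split into core and regulatory particle was set beside the libraries after the values were seen.

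**Figure D4:**
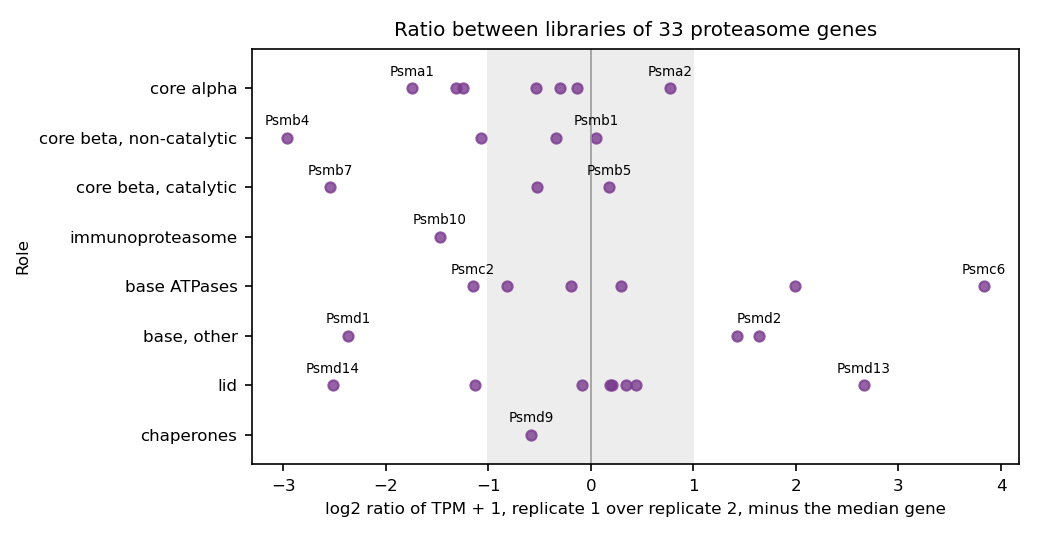
Log2 ratio of TPM + 1 in replicate 1 over replicate 2, minus the median of all genes compared, for the 33 members with at least 10 counts in both libraries, by role; the grey band spans 2-fold in either direction. The 14 constitutive core subunits lie mostly left of 0, none of them beyond 2-fold to the right, and the base and lid subunits spread to both sides, from Psmd14 to Psmc6.

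Proteins that act with the proteasome were measured from lists of genes around it. Of 7 further subunits and associated proteins, 5 were detected in both libraries and 2 in replicate 1 only. Sem1, a small lid subunit, had 63.5 and 188 TPM in replicates 1 and 2, and Adrm1, a ubiquitin receptor of the base, had 102 and 86.0 TPM. Of 5 core assembly factors, 2 were detected in both libraries and 2 in replicate 2 only. Pomp, the maturation protein of the beta rings, had 218 and 241 TPM, and Psmg4 had 0 and 139 TPM. Of 5 activators and inhibitors, 4 were detected in both. The subunits of the interferon-inducible activator, Psme1 and Psme2, had 169 and 287 TPM in replicate 1 and 56.7 and 63.1 TPM in replicate 2, so both were higher in replicate 1, the library with the lower Psmb10.

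All 5 genes for ubiquitin and its activating enzyme were detected in both libraries, led by the polyubiquitin gene Ubb with 2834 and 2502 TPM in replicates 1 and 2. Of 8 shuttle and segregase genes, 3 were detected in both, led by the segregase Vcp with 151 and 234 TPM. Of 8 muscle ubiquitin ligases, 3 were detected in both, 3 in replicate 2 only and 2 in neither. Nedd4 led the list with 277 and 216 TPM in replicates 1 and 2. Trim63, a ligase that is induced in muscle atrophy, had 35.5 TPM in replicate 1 and 2.30 TPM in replicate 2. Fbxo32, another such ligase, had 0.01 TPM (1 count) in replicate 1 and 8.90 TPM (1900 counts) in replicate 2. Of 4 regulators of proteasome genes, 3 were detected in both. Nfe2l1, the transcription factor that adjusts proteasome gene expression, had 25.3 and 32.8 TPM, and Ngly1, an enzyme needed for its activation, had 38.1 and 33.6 TPM. Both had less than a 1.5-fold difference between libraries, whereas the related factor Nfe2l2 had 43.6 TPM in replicate 1 and 1.72 TPM in replicate 2. The remaining regulator, Ddi2, was detected in replicate 2 only, with 0.19 and 2.09 TPM in replicates 1 and 2.

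The deposited transcript tables split each gene's level among its annotated transcripts. Of the 33 members detected in both libraries, 26 have more than 1 transcript, and for 16 of the 26 the main transcript held at least 90% of the gene's level in both libraries. The transcript with the largest share of TPM was the same in both libraries for 24 of the 26, the exceptions being Psma3 and Psmd1. By expected counts the leading transcript was the same for all 26. In Psmd1, a transcript with a retained intron, Psmd1-203, held 55.6% in replicate 1 and 0% in replicate 2, where the coding Psmd1-201 held 98.7%. Psmd1-203 rested on 71.5 expected counts in replicate 1, fewer than the 292 of Psmd1-201, and led only per length.

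In Psma3 the retained-intron transcript Psma3-203 held 41.2% and 39.7% in replicates 1 and 2. The coding Psma3-204 held 12.9% and 30.9%, and Psma3-201, which the annotation marks for nonsense-mediated decay, held 44.5% and 27.6%. In Psmb4 the retained-intron transcript Psmb4-202 held 57.7% and 54.5%, against 34.6% and 44.3% for the coding Psmb4-201. These shares are of TPM, which divides counts by transcript length, whereas a longer transcript yields more counts per molecule. By expected counts Psma3-203 led in Psma3 in both libraries. It had 4364 and 6444 counts in replicates 1 and 2, against 1116 and 4106 for the coding Psma3-204. By expected counts the coding Psmb4-201 led, with 359 against 313 in replicate 1 and 4566 against 2938 in replicate 2. In Psmd13 and Psmd12, main coding transcripts held 49.3% and 60.1%, and 52.8% and 56.7%, of the level in replicates 1 and 2.

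Reads of some members could also be assigned to near-identical copies elsewhere in the genome. A search of coding transcripts against annotated pseudogenes, with at least 85% identity over at least 300 bases, found 21 copies of 12 members. The copies held counts equal to 1.44% of all counts of the members in replicate 1 and 1.52% in replicate 2. Most of these were on Gm13835, a processed pseudogene at chr6:31141979-31142663 that is identical to Psma3 over 685 bases and was assigned 2244 and 3621 counts. The copies of Psma3 together held counts equal to 23.1% and 24.7% of those of Psma3 in replicates 1 and 2. The counts of Psma3 may thus be too low by up to that much. In TPM, Gm13835 alone held 157 and 198 in replicates 1 and 2, beside 468 and 560 for Psma3. The level of Psma3 may also be too high, by an amount not measured, because reads given to Psma3 may belong to a copy. Outside Psma3, no member's copies held more than 1.68% of its counts. Expected counts were more than 0.005 from a whole number for 7 members, Psma3, Psma4, Psma5, Psmb3, Psmc1, Psmd2 and Psmd11, which shows that reads were shared out among rows.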

How the data were processed

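The mirVana kit served for extraction, per the labels' protocols, sizes above 200 were kept, and libraries followed a SmartSeq protocol with spike-in RNAs. The authors deposited expected counts, which are not normalized and can hold fractions of a read, in columns that per the file headers are those of RSEM. The deposited TPM values are adjusted for length and scaled by the authors over all rows, spike-ins included. The percent of a gene's level held by each transcript was likewise deposited. Per the deposited descriptions reads were assigned to mm10 with GENCODE M4. The aligner and the use of strand are not given in the sources used, so reads of overlapping and antisense genes may not be told apart.

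GENCODE M21, on GRCm38 (mm10 under another name), supplied symbols, types and coordinates, matched by identifier without version, which named 42462 of 43346 genes. Ratios between libraries used log2(TPM + 1) and at least 10 expected counts in both. A count of 0 was taken to allow 3 counts, and shares have 95% Wilson intervals. Without molecular identifiers, intervals and limits cover counting error only. An exact test over n = 2 libraries cannot reach a small p-value, so none was made. The ratio calculation was tested on simulated Poisson counts, scaled by library total and without loss of molecules. That test does not show how reliable the ratios of these 2 libraries are. Alternatives covered the detection rule, depth, scaling, pseudocount, unit, left-out libraries and left-out genes. edgeR 4.0.16 in R 4.3.3 gave TMM factors on expected counts rounded to whole numbers, blastn 2.17.0 found copies, and the rest was done in Python 3.11.15 with pandas 2.3.3, scipy 1.17.1, matplotlib 3.10.9 and numpy 2.4.6. All members are named, and for other lists up to 4 genes of highest mean TPM are named, while genes named beside these were chosen after their values were seen. The members and lists were chosen with earlier results of these data known. One gene of the interferon list is not reported here.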

Additional observations from a re-analysis of the deposited data

How the results depend on the processing

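The count of 33 members detected in both libraries kept within 1.5 times under all 4 alternatives, from 33 to 34. One of these thinned replicate 2 to the depth of replicate 1. The alternatives could hardly lower the count. The lowest counts of the 33 were 338 in replicate 1, of Psmb10, and 562 in replicate 2, of Psmc6. A limit of 10 counts or the thinning was thus far from removing a member. Psmc3ip, Psma8 and Psmb11, left out in another alternative, had 0 counts in both libraries. The share of all TPM moved by less than the SD under the alternatives run, from 0.586% of expected counts to 0.733% of TPM rescaled without spike-ins, was 0.631% without Psma3, and spanned 0.610% to 0.755% with a library left out. The log2 ratio of immunoproteasome to constitutive catalytic genes stayed negative. It was -5.11 from expected counts, -7.97 as the median of 3 pair ratios with a pseudocount of 1 and -11.28 with a pseudocount of 0.1, where the middle pair has a gene at 0 counts and the pseudocount sets the value. With a library left out it spanned -6.07 to -5.30. The median ratio of replicate 1 to replicate 2 was -1.24 when centred on spike-ins, whose median ratio was 0.98. As alternatives added after the values were seen, it was -0.53 for core subunits alone and 0.20 for base and lid subunits alone, since these sets hold different genes. The other alternatives moved it by at most 0.1. Catalytic genes were compared within each library, but no paired test was made, because n = 2 libraries are too few for one. The small input limits what was measured: members under 30 TPM in a library were not all found in the other, and 0 counts of Psmb8 and Psmb9 do not exclude transcripts lost before sequencing.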
